A study of Mus musculus with 8 samples.

Results

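Oxidative phosphorylation in the left ventricle was examined through the genes of the cell nucleus that encode its protein subunits, in mice that lack the regulatory element RE1 and in wild-type littermates. RE1 lies in the Nppa-Nppb locus, whose genes encode the heart's natriuretic peptides, and it was deleted by CRISPR. The 4 RE1 knockout mice were homozygous for the deletion and the 4 wild-type mice were littermates, all on the FVB strain and 8 to 12 weeks old. Each library is total RNA from the left ventricle of 1 mouse, and the sources used here give neither the sex of the mice nor the number of founder lines.

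Members were taken by gene symbol, as the Nduf, Sdh, Uqcr, Cox4 to Cox8 and Atp5 families together with Cyc1 and Cycs. In all, 96 of the 41128 gene IDs in the deposited count table carry such a symbol. Of these, 9 are pseudogenes and 2 are rows whose ID belongs to a copy of Cycs or Cox5b. A further 3 had fewer than 100 reads over the 8 libraries, namely Cox6b2 with 35, Cox7b2 with 23 and Cox8c with 0. The remaining 82 genes are described here, 36 of them by symbol in complex I, 4 in complex II, 9 in complex III, 14 in complex IV and 18 in complex V, with Cycs on its own. All 82 passed the filter on low counts and are among the 16551 genes tested. Matching by symbol includes Ndufa4, which is named for complex I and known as a subunit of complex IV, and Atp5s and Atp5sl, which are not subunits of the ATP synthase.

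Complexes I to IV of the inner mitochondrial membrane pass electrons from NADH and succinate to oxygen, and complexes I, III and IV pump protons. Complex V, the ATP synthase, lets the protons flow back to make ATP. Complex I accepts electrons from NADH and complex II from succinate. Coenzyme Q carries them on to complex III and cytochrome c to complex IV, the cytochrome c oxidase. Most subunits are encoded in the nucleus and imported, and a few catalytic ones are encoded in mitochondrial DNA, so the complexes are built from the products of both genomes. Heart muscle draws most of its ATP from this pathway, and its mRNAs are abundant there. In heart and skeletal muscle some subunits of complex IV are replaced by muscle forms, encoded by Cox6a2, Cox7a1 and Cox8b.

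Sequence before the start of transcription was available for 67 of the 82 members in RefSeq's promoter table for GRCm38.p6. Their 73 windows, from 250 bases before to 50 bases after the start, were searched on both strands for 5 letter strings. The core bound by nuclear respiratory factor 1 (NRF1), GCGCA and GCGC with 1 base of any kind between them, was in 24.7% of the members' windows. It was in 4.6% of all 32851 windows of the table and in 9.04% of the 13967 windows of other genes tested here. CCGGAAG, recognised by ETS factors such as GABP, was in 21.9% against 8.86% and 16.0%. AAGATGGCG, recognised by YY1, was in 12.3% against 1.4% and 2.64%. CACGTG, the E-box, was in 12.3% against 7.15% and 9.6%. Its 9 windows belong to 7 members, and by gene the share was 10.4% against 8.09% of all genes in the promoter table. TCAAGGTCA, recognised by oestrogen-related receptors (ERR), was in 2.74%, which is 2 windows, against 0.423% and 0.315%. A match describes letters, not a bound site. By complex, the NRF1 string was found for 7 of 32 members of complex I, 2 of 3 of complex II, 1 of 5 of complex III, 1 of 10 of complex IV and 6 of 16 of complex V.

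Windows of 5 members are shown from 5′ to 3′ on the strand of the gene, because they hold the NRF1, ETS, ERR and E-box strings or, for the muscle form Cox7a1, none of the 5. Each is the longest stretch before the RefSeq start that lies outside every GENCODE M21 exon, and capitals mark the strings found. Ndufs5 (chr4:123718203-123718436, minus strand, GRCm38.p6) holds 1 NRF1 string and Cox6a1 (chr5:115348982-115349129, minus strand) holds 2. Uqcr11 (chr10:80406831-80407071, minus strand) holds 1 ETS string. Atp5g3 (chr2:73911327-73911576, minus strand) holds an E-box and, on the opposite strand, the ERR string. Cox7a1 is at chr7:30183921-30184143 on the plus strand.
Ndufs5: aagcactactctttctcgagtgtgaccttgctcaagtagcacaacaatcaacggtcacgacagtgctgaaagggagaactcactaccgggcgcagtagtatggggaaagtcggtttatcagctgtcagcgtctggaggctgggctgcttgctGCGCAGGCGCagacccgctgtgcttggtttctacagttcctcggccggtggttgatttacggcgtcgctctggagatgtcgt
Cox6a1: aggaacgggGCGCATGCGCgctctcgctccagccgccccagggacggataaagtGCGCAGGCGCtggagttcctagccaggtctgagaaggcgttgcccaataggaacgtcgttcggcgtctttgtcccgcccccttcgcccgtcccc
Uqcr11: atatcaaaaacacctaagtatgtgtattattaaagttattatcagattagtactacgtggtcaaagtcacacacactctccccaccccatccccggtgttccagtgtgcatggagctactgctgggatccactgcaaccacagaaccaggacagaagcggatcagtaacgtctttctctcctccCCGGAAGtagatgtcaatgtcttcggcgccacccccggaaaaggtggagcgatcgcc
Atp5g3: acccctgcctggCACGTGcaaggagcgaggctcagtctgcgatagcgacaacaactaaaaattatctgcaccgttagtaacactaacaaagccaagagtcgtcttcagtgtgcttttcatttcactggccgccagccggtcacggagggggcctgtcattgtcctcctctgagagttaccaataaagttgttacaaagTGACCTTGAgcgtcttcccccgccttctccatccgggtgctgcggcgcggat
Cox7a1: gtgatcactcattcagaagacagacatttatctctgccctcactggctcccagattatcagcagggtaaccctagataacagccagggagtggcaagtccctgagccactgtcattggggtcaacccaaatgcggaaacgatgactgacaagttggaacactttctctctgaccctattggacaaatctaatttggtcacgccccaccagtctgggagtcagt

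Gene counts totalled 16778368 to 37133306 per library. The targeted locus matched the labels, with Nppa at 327.3 to 627.9 normalized counts in the wild-type and 4.16 to 9.63 in the knockout libraries. The tissue carried the ventricular light chain gene Myl2 at 99820 ± 6614 normalized counts in wild-type libraries, and the atrial light chain gene Myl7 at 3.24 ± 2.997. In the knockout libraries Myl7 was at 11.02 ± 5.118, too low in both groups to be tested, and the atrial light chain gene Myl4 was at 36.3 ± 17.4 against 26.4 ± 8.62 in wild-type libraries (SD, n = 4 for each mean). Of 5 listed atrial markers 3 were tested, namely Myl4, Nr2f2 and Nppa, and only Myl4 had a positive log2 fold change. Nr2f2 was at 162.8 ± 10.8 in wild-type and 150.4 ± 14.3 in knockout libraries (SD, n = 4 each). Sln, too low to be tested, was at 0.936 ± 1.26 and 4.94 ± 6.42 (SD, n = 4 each). The share of mitochondrial rRNA was between 8.51% and 10.5% in the wild-type libraries. Among the knockout libraries it was 9.40% in replicate 1 and 9.01% in replicate 3, but 6.40% in replicate 2 and 6.19% in replicate 4. An index of clock genes, the mean log2 CPM (counts scaled to library size) of Arntl and its companions minus that of Dbp and its companions, lay between −2.84 and −0.83 for wild-type mice and between −0.53 and 0.59 for knockout mice, so the groups did not overlap. The sources used here do not give the hour at which tissue was taken.

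No single OXPHOS gene passed edgeR's test, and most had slightly higher values in knockout ventricles. Together the 82 members held 2.24%, 2.31%, 2.35% and 2.30% of the counts in the wild-type replicates, 1 to 4 in order, and 2.32%, 2.44%, 2.36% and 2.48% in those of the knockout. Wild-type replicate 3, the highest of its group, lay above knockout replicate 1, so these shares overlapped. These shares count mitochondrial rRNA in the total, which was low in knockout replicates 2 and 4. Of the counts outside the mitochondrial genome the members held 2.76% ± 0.070 in wild-type and 2.82% ± 0.036 in knockout mice (SD, n = 4 each), and the ranges, 2.70% to 2.86% and 2.77% to 2.86%, overlapped too. The median log2 fold change of the members, knockout over wild-type, was 0.07, which is 4.98%, and the median of all 16551 genes tested was 0.0001. The members ran from −0.08 for Cox7a1 to 0.16 for Uqcrb, with standard errors from 0.038 to 0.13.

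With edgeR's quasi-likelihood test at an adjusted p under 0.05, 0 of the 82 members were higher and 0 were lower in the knockout, while DESeq2 called 1 higher and limma 0. Over all genes tested that rule called 0.375% higher and 0.689% lower. At an unadjusted p under 0.05, 20 members (24.4%) were higher and 0 were lower, where all genes gave 6.11% and 6.9%. Without wild-type replicate 1 the 20 became 11, and without wild-type replicate 4 they became 10, and the share of all genes is not given for those fits. Positive log2 fold changes were found for 78 members of 82, against 8283 of the 16551 genes. Among the 11033 genes at least as abundant as the lowest member, 5724 were positive and 7.14% were higher at an unadjusted p under 0.05. That set is not matched to the members in precision, with a median standard error of 0.0744 against 0.043. All members are read from the same 8 libraries and are not independent of each other, so these shares are descriptions and carry no test.

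A total of 19 members had a log2 fold change of 0.1 or more, 36 lay between 0.05 and 0.1, 23 between 0 and 0.05, and 4 below 0. In 12 members (14.6%) all 4 knockout libraries lay above all 4 wild-type libraries in log2 CPM, and in 0 members all lay below. Over all genes these shares were 3.32% and 3.83%. The 12, named here for that separation, are Ndufa11, Ndufa12, Ndufb3, Ndufb8, Ndufb9, Ndufc2, Ndufs3 and Ndufv2 of complex I, Uqcrb and Uqcrfs1 of complex III, Cox5b of complex IV and Atp5f1 of complex V.

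**Figure D1:**
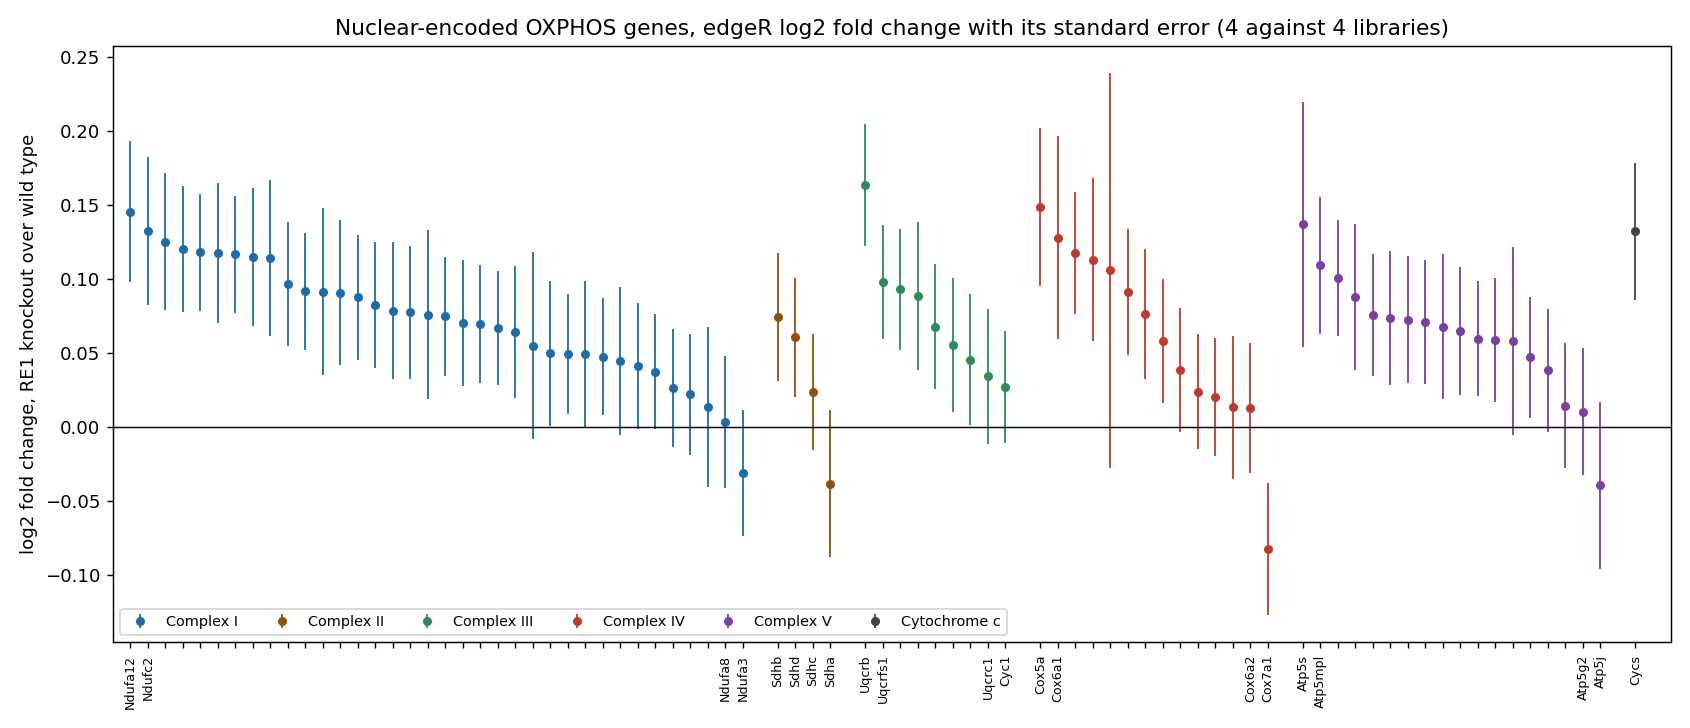
Log2 fold change of each of the 82 members, knockout over wild-type, on the vertical axis, ordered within each complex. Bars are standard errors derived from edgeR's F statistic, and names stand under the 2 highest and the 2 lowest of each complex. Of the 82 points, 78 lie above 0, and Cox7a1, Atp5j, Sdha and Ndufa3 lie below.

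By library, the mean deviation of the members from their wild-type mean, on the log2 scale, was −0.04, 0.02, 0.05 and −0.03 in wild-type replicates 1 to 4. It was 0.06, 0.06, 0.07 and 0.08 in the knockout replicates. Every knockout library was above every wild-type one, and the gap between the groups was smaller than the range of the wild-type libraries. In wild-type replicates 1 and 4 only 16 and 23 members exceeded their wild-type mean, and in replicates 2 and 3 it was 56 and 69. In the knockout libraries 71, 71, 77 and 72 did so. The lowest of the 8 libraries was a wild-type one for 73 members, most often replicate 1 (34 members) or 4 (23), and the highest was a knockout one for 65, most often replicate 4 (29) or 3 (22). In a piece of ventricle, a larger share of cardiomyocytes and more of these mRNAs per cell cannot be told apart.

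**Figure D2:**
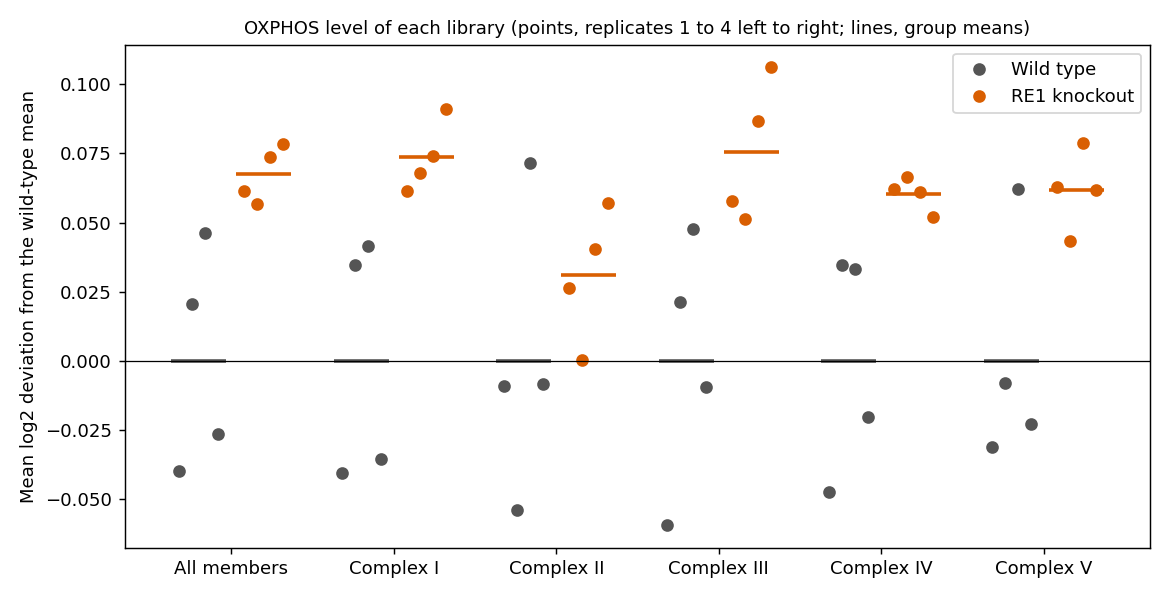
Mean log2 deviation from the wild-type mean on the vertical axis, over all members and over the members of each complex, 1 point per library and a line at the group mean. All 4 knockout libraries lie above all 4 wild-type libraries for all members together and for complexes I, III and IV, and the groups overlap for complexes II and V.

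The direction held with other scalings and without libraries that stand apart, and its size varied. Without knockout replicates 2 and 4, the libraries low in mitochondrial rRNA, 75 members were positive with a median of 0.06. With the mitochondrial rRNA share as a covariate, 75 were positive with a median of 0.06. With the clock index as a covariate, 67 were positive with a median of 0.06. That index did not overlap between the groups, so this fit cannot tell the clock from the genotype. Over all genes it called 0 higher and 1 lower. With an index of mesothelial markers as a covariate, 74 were positive with a median of 0.10. The members have short transcripts, with a median of 849 bases for the principal transcript against 2761 bases over all genes tested, and offsets for transcript length and GC left 72 positive with a median of 0.06. With those offsets 11 members were higher at an unadjusted p under 0.05, and with the clock covariate also 11. The share of all genes at that level is not given for these fits. Of all genes tested, 8366 of 17058 were positive without knockout replicates 2 and 4, and 8352 of 16424 with the offsets. Of 16551 genes, 8173 were positive with the mitochondrial rRNA covariate, 8204 with the clock and 8319 with the mesothelial covariate.

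Complex I, the NADH dehydrogenase, had 35 of 36 members positive with a median log2 fold change of 0.08 (0.12 with the mesothelial covariate), and 11 were higher at an unadjusted p under 0.05. The largest value was that of Ndufa12, an accessory subunit. Its normalized counts were 2947, 3300, 3323 and 3230 in the wild-type libraries and 3400, 3624, 3711 and 3418 in the knockout libraries. Every knockout library was above every wild-type one, and wild-type replicate 1 was the lowest. The log2 fold change was 0.15 (± 0.05 SE, with edgeR adjusted p = 0.174), with 11.4% of the gene's exon sequence shared with the pseudogene Gm15920. Ndufv2, an iron-sulphur subunit of the NADH-oxidising part that is shown here after its values were seen, had 5123, 5427, 5418 and 5170 in the wild-type and 5646, 5697, 5884 and 5727 in the knockout libraries. Those groups did not overlap either, and no other gene shared its sequence (log2 fold change 0.12, ± 0.04 SE, with edgeR adjusted p = 0.185).

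The catalytic core of complex I is formed by 7 nuclear subunits and 7 encoded in mitochondrial DNA. The latter were all negative in the main fit and are described further below. The 7 nuclear ones, grouped here after their values were seen, were all positive with a median of 0.07. The other 29 members had a median of 0.08 with 28 positive. Ndufs1, the largest subunit, had 10820 ± 460.0 normalized counts in the wild-type and 11140 ± 405.5 in the knockout libraries (SD, n = 4 each). Its log2 fold change was 0.04 (± 0.04 SE, with edgeR adjusted p = 0.738). Ndufv1, the NADH-binding subunit, went from 10360 ± 485.2 to 10880 ± 339.4, a log2 fold change of 0.07 (± 0.04 SE, with edgeR adjusted p = 0.518). In both genes the ranges of the groups overlapped. Ndufb9, of the membrane arm, had the highest level of the complex by merged exons. Its normalized counts were 6698, 6996, 7091 and 6741 in the wild-type and 7176, 7265, 7312 and 7592 in the knockout libraries, a separation with a log2 fold change of 0.09 (± 0.04 SE, with edgeR adjusted p = 0.330). Ndufa3 was the one member of complex I with a negative value, 2879 to 3130 normalized counts in the wild-type and 2881 to 3029 in the knockout libraries (log2 fold change −0.03, ± 0.04 SE, with edgeR adjusted p = 0.819).

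Complex II, succinate dehydrogenase, is also an enzyme of the citric acid cycle and is built from nuclear genes alone. Its median log2 fold change was 0.04, with 3 of 4 positive and 0 higher at an unadjusted p under 0.05. Sdha, the flavoprotein that oxidises succinate, had 18750, 17300, 20610 and 19720 normalized counts in the wild-type and 18820, 17700, 19320 and 18580 in the knockout libraries. The knockout values lay within the wild-type range (log2 fold change −0.04, ± 0.05 SE, with edgeR adjusted p = 0.802). Sdhb, the iron-sulphur subunit, had 9995, 9479, 10550 and 9782 in the wild-type and 10630, 10190, 10150 and 10970 in the knockout libraries. Wild-type replicate 3 lay among the knockout values, and the log2 fold change was 0.07 (± 0.04 SE, with edgeR adjusted p = 0.495). Sdhc and Sdhd, the membrane anchors, were at 0.02 and 0.06.

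Complex III, the cytochrome bc1 complex, held the member with the smallest p, Uqcrb, and all 9 of its members were positive with a median of 0.07. Uqcrb encodes a small subunit at the quinone site and lies on chromosome 13 at 66900617 to 66905378 (minus strand, GRCm38). Its normalized counts were 4728, 4870, 5084 and 4898 in the wild-type and 5409, 5249, 5666 and 5616 in the knockout libraries. The lowest knockout library was above the highest wild-type library. The difference was 12.0% (95% interval 5.90% to 18.5%), a log2 fold change of 0.16 (± 0.04 SE, with edgeR unadjusted p = 0.000878, adjusted p = 0.0643), so it missed the threshold of 0.05. It passed with DESeq2 (adjusted p = 0.018) and in edgeR with no low-count filter (adjusted p = 0.0152), and over the alternatives its adjusted p ran from 0.0152 to 0.706. In the authors' deposited table Uqcrb had a log2 fold change of 0.16, turned to knockout over wild-type, with an adjusted p of 0.0205. An exon of Uqcrb overlaps Gm10767 on the opposite strand, and 8.9% of its exon sequence is shared with other genes. The sources used here do not say whether counting used the strand, so reads of Gm10767 could be among these counts.

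Uqcrfs1, the Rieske iron-sulphur protein that passes electrons to cytochrome c1, had 8254, 8170, 8351 and 7784 normalized counts in the wild-type and 8836, 8577, 8733 and 8726 in the knockout libraries. All knockout values were higher than all wild-type ones, at a log2 fold change of 0.10 (± 0.04 SE, with edgeR adjusted p = 0.280). Cyc1, which encodes cytochrome c1 itself, was at 7146 to 7388 in the wild-type and 7252 to 7620 in the knockout libraries. Those ranges overlapped, at 0.03 (± 0.04 SE, with edgeR adjusted p = 0.819). Uqcr11, which had the highest level of the complex, had 5515 normalized counts in wild-type replicate 1 and 6090 to 6202 in the other 3, against 5969 to 6427 in the knockout. Its log2 fold change was 0.05 (± 0.04 SE, with edgeR adjusted p = 0.717). The 5 small subunits had a median of 0.09 and the 4 catalytic and core subunits one of 0.05, a grouping made after the values were seen.

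**Figure D3:**
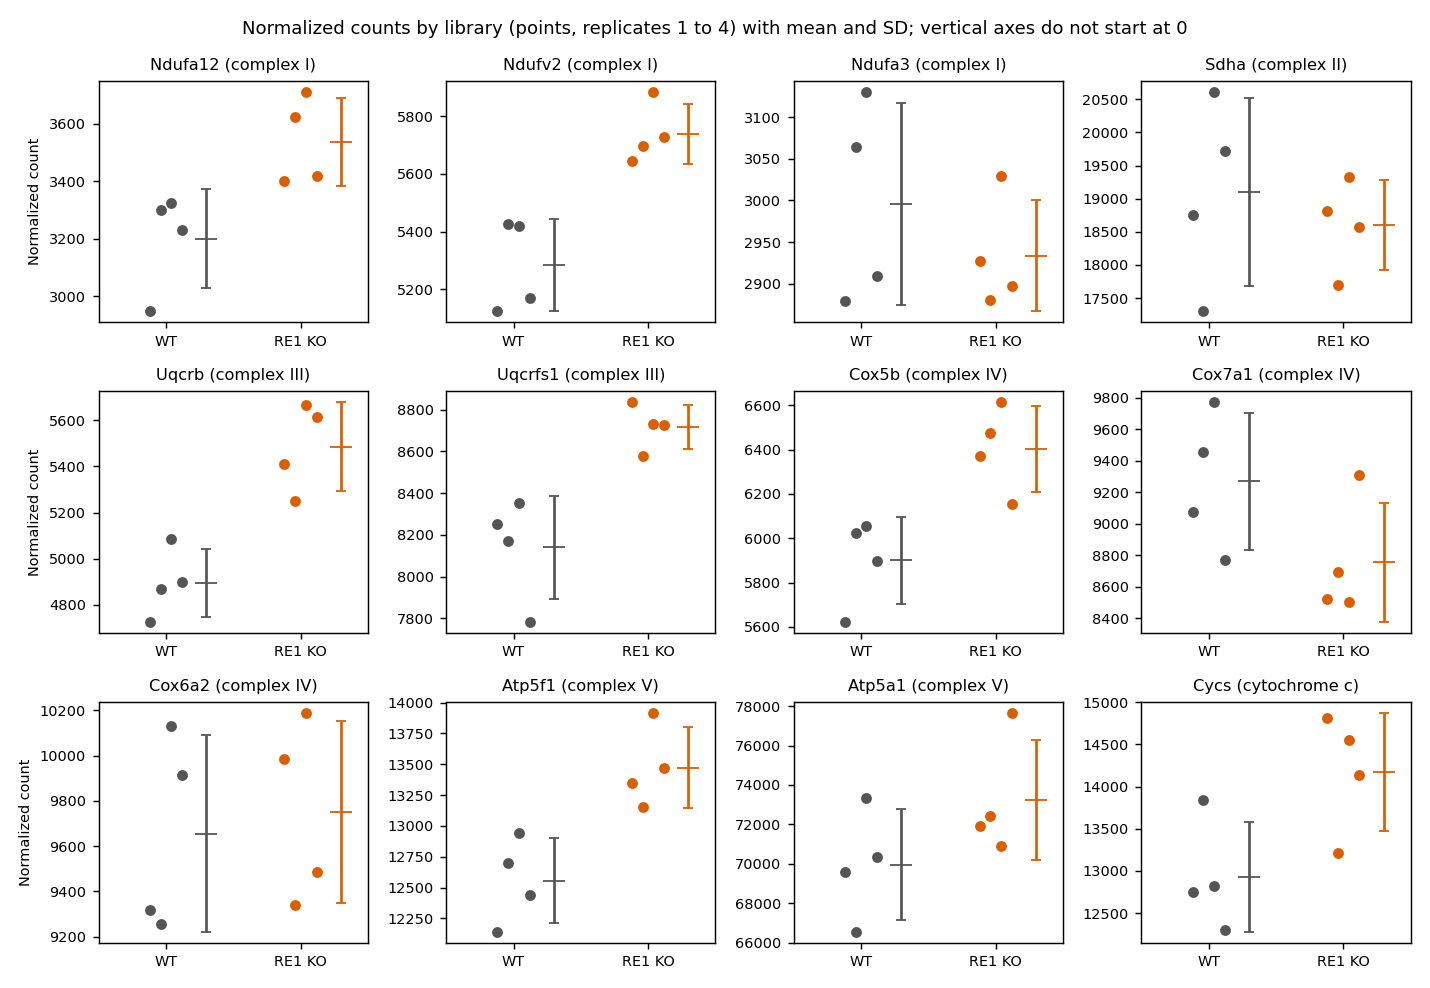
Normalized counts on the vertical axis for 12 members, 1 point per library with replicates 1 to 4 from left to right in each group, and the group mean with its SD beside them. Vertical axes do not start at 0. Knockout points lie above all wild-type points for Ndufa12, Ndufv2, Uqcrb, Uqcrfs1, Cox5b and Atp5f1 and overlap with them for the other 6.

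Complex IV had 13 of 14 members positive with a median of 0.07 (0.03 with the length and GC offsets), and 3 were higher at an unadjusted p under 0.05. Cox5b, a structural subunit on the matrix side, had 5624, 6026, 6056 and 5896 normalized counts in the wild-type and 6373, 6474, 6614 and 6153 in the knockout libraries. The groups were apart, with a log2 fold change of 0.12 (± 0.04 SE, with edgeR adjusted p = 0.214). The copy Gm11273 carried 57.55% as many reads as Cox5b, so the value of Cox5b is uncertain. Cox5a, its neighbour in the enzyme, had 2347, 2385, 2162 and 2110 in the wild-type and 2706, 2458, 2526 and 2316 in the knockout libraries. Knockout replicate 4 lay below 2 wild-type libraries, and the log2 fold change was 0.15 (± 0.05 SE, with edgeR adjusted p = 0.230). Cox5a overlaps Gm26631 on the opposite strand. Cox4i1, the general form of the largest nuclear subunit, was at 17680 to 18470 in the wild-type and 17520 to 18950 in the knockout libraries (0.02, ± 0.04 SE, with edgeR adjusted p = 0.851). Cox6b1, which joins the enzyme's monomers, had a mean of 7971 ± 375.5 in wild-type mice and 8412 ± 314.9 normalized counts in knockout mice (SD, n = 4 each), a log2 fold change of 0.08 (± 0.04 SE, with edgeR adjusted p = 0.487), and its testis form Cox6b2 had 35 reads in all.

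The muscle forms of complex IV had values nearer to 0 or below it than the other forms of the same subunits. Cox7a1, the muscle form of subunit 7a, lies on chromosome 7 at 30184144 to 30186078. Its normalized counts were 9074, 9458, 9771 and 8771 in the wild-type and 8522, 8697, 8501 and 9307 in the knockout libraries. Of the knockout libraries 3 lay below all wild-type ones and replicate 4 lay within them. This was the lowest value of the 82 members, a difference of −5.55% (95% interval −11.1% to 0.333%), log2 fold change −0.08 (± 0.04 SE, with edgeR adjusted p = 0.459). Cox7a2, the form made in most tissues, was at 3727 to 4070 in the wild-type and 3996 to 4199 in the knockout libraries (0.06, ± 0.04 SE, with edgeR adjusted p = 0.601).

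The muscle form Cox6a2 was at 9258 to 10130 normalized counts in the wild-type and 9341 to 10190 in the knockout libraries (0.01, ± 0.04 SE, with edgeR adjusted p = 0.938). Its counterpart Cox6a1 was at 773.4 to 864.3 and 750.4 to 947.7 (0.13, ± 0.07 SE, with edgeR adjusted p = 0.456). Cox8b, the muscle form of subunit 8, was at 4602 to 5471 and 4999 to 5295 (0.01, ± 0.05 SE, with edgeR adjusted p = 0.944), and Cox8a at 1092 to 1302 and 1229 to 1310 (0.11, ± 0.06 SE, with edgeR adjusted p = 0.398). The ranges of the groups overlapped for all 6 genes.

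Ratios of the forms within a library remove what is common to both genes. In TPM (transcript levels, as counts per kilobase of merged exons scaled to a fixed total), Cox6a2 was 12.5-fold, Cox7a1 4.14-fold and Cox8b 7.39-fold above its counterpart in wild-type libraries. With the length of the principal transcript these were 10.2-fold, 3.94-fold and 6.56-fold, so the muscle forms led with either length. The log2 ratio of Cox7a1 over Cox7a2 was 2.10, 2.05, 2.08 and 1.96 in the wild-type and 1.89, 1.87, 1.91 and 1.97 in the knockout libraries. Knockout replicate 4 lay just above wild-type replicate 4, and the other knockout libraries lay below all wild-type ones. The difference was −0.14 (exact permutation test over the 70 assignments of libraries, two-sided p = 0.0571, 0.229 adjusted over the 4 ratios). For Cox6a2 over Cox6a1 the difference was −0.11 (exact permutation p = 0.257, adjusted 0.419). For Cox8b over Cox8a it was −0.10 (exact permutation p = 0.314, adjusted 0.419). The smallest p this design allows is 0.0286 before adjustment. After adjustment over the 4 ratios, a single ratio with its groups fully apart would still miss the threshold on its own. The ratios of these 4 against 4 libraries were thus not shown to differ, and the adjusted p cannot decide whether a single ratio did.

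**Figure D4:**
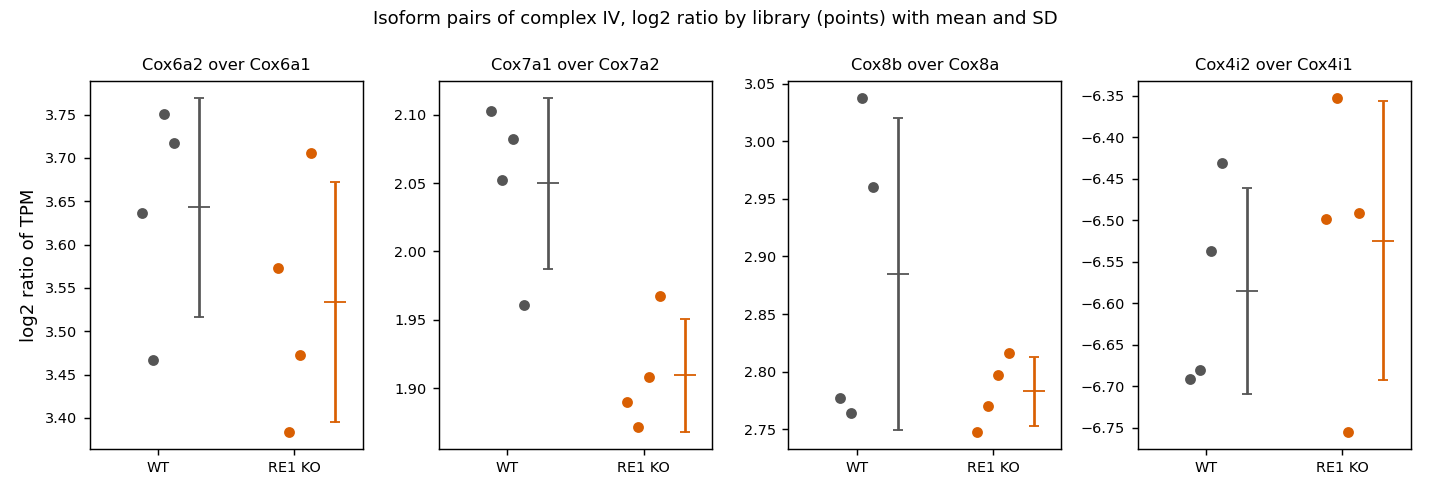
Log2 ratio of TPM on the vertical axis for 4 pairs of complex IV forms, 1 point per library with the group mean and SD beside them. The mean of the knockout libraries lies below that of the wild-type libraries for the 3 muscle forms over their counterparts, and the ranges overlap in all 4 panels.

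Cox4i2, the form of subunit 4 known from lung and from low oxygen, was the member of complex IV with the lowest level. Its normalized counts were 86.95, 88.3, 101.1 and 105.0 in the wild-type and 103.0, 113.5, 82.45 and 107.1 in the knockout libraries, and the groups overlapped (log2 fold change 0.11, ± 0.13 SE, with edgeR adjusted p = 0.796). In TPM, Cox4i1 was 96.0-fold above it in wild-type libraries, and 181-fold above it with principal transcript lengths. The log2 ratio of Cox4i2 over Cox4i1 differed by 0.06 between the groups (exact permutation p = 0.6, n = 4 each).

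Complex V had 17 of 18 members positive with a median of 0.07, and 2 were higher at an unadjusted p under 0.05. Atp5f1, subunit b of the peripheral stalk, had 12140, 12700, 12940 and 12440 normalized counts in the wild-type and 13350, 13150, 13920 and 13470 in the knockout libraries. The groups were apart, with a log2 fold change of 0.10 (± 0.04 SE, with edgeR adjusted p = 0.270). Atp5j, coupling factor 6 of the same stalk, had 4573, 4444, 5159 and 4796 in the wild-type and 4866, 4267, 4982 and 4361 in the knockout libraries. Those groups overlapped throughout, and the log2 fold change was −0.04 (± 0.06 SE, with edgeR adjusted p = 0.829).

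The catalytic head of the synthase is formed by the α and β subunits, encoded by Atp5a1 and Atp5b, which had the highest read counts of the 82 members. Atp5a1 had 69580, 66540, 73360 and 70350 normalized counts in the wild-type and 71900, 72440, 70900 and 77680 in the knockout libraries. Knockout replicate 4 was the highest and the other 3 lay within the wild-type range (0.07, ± 0.04 SE, with edgeR adjusted p = 0.564). Atp5b had 67210, 64960, 73250 and 69580 in the wild-type and 68640, 69310, 68930 and 71070 in the knockout libraries, all 4 of the latter within the wild-type range (0.01, ± 0.04 SE, with edgeR adjusted p = 0.928).

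The rotor ring of the synthase is made of a single protein, subunit c, that 3 genes encode with different import sequences. Atp5g3 had the highest TPM of the 3 in wild-type libraries with either length, 178.5 ± 8.86 by merged exons (SD, n = 4). Atp5g1 was at 109.4 ± 9.54 and Atp5g2 at 67.8 ± 3.98 (SD, n = 4 each), and with principal transcript lengths Atp5g2 came before Atp5g1. The log2 fold changes were 0.07 for Atp5g1, 0.01 for Atp5g2 and 0.04 for Atp5g3 (± 0.05, 0.04 and 0.04 SE, with edgeR adjusted p = 0.603, 0.950 and 0.750). Atp5g2 shares 34.7% of its exon sequence with other genes, the most of any member, and the pseudogene Gm10175 carried 99.88% as many reads as Atp5g2, so its value is uncertain.

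Cytochrome c, encoded in heart by Cycs, carries electrons from complex III to complex IV and triggers cell death when it leaves the mitochondrion. Its normalized counts were 12750, 13840, 12820 and 12300 in the wild-type and 14810, 13210, 14550 and 14140 in the knockout libraries. Knockout replicate 2 lay below wild-type replicate 2, and the other 3 were above all wild-type values. The log2 fold change was 0.13 (± 0.05 SE, with edgeR adjusted p = 0.214), 9.61% with a 95% interval of 2.93% to 16.7%. Cycs shares 22.6% of its exon sequence with other genes, and the copy Gm10053 carried 81.89% as many reads.

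Between genes, levels were compared in TPM. Among the members Atp5a1 was first by merged exons with 878.3 ± 50.5 TPM in wild-type libraries, followed by Cox7a1 with 681.4 ± 33.6 and Atp5b with 638.8 ± 45.1 (SD, n = 4 each). The spreads of Cox7a1 and Atp5b overlapped. With the principal transcript's length Atp5b was first with 1324 ± 90.9 and Atp5a1 second with 1045 ± 58.1, and Cox7a1 and Cox4i1 were next at 869.8 ± 41.7 and 865.6 ± 31.7. The same genes thus led with both lengths in a different order. Complex IV had a higher median level than complex I, 188.3 against 88.5 TPM by merged exons and 352.6 against 145.5 by principal transcripts. The lowest levels with both lengths were those of Atp5s and Cox4i2, under 6 TPM.

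Most subunits encoded in mitochondrial DNA had negative values, unlike most of the nuclear ones, a difference that was not tested. Of 13 such genes, 3 had a positive log2 fold change, the median was −0.11, and 0 were higher or lower at an adjusted p under 0.05, with 3 lower and 0 higher at an unadjusted p under 0.05. The 3 positive ones were mt-Co1, mt-Co2 and mt-Co3, the mtDNA subunits of complex IV, at 0.01, 0.03 and 0.04. The 7 of complex I were all negative, from −0.01 for mt-Nd3 to −0.33 for mt-Nd6, and the 3 lower ones were mt-Nd4, mt-Nd5 and mt-Nd6. Mt-Nd5 had 27490, 31370, 23780 and 23560 normalized counts in the wild-type and 23520, 19870, 23410 and 20090 in the knockout libraries. Knockout replicates 2 and 4, the libraries low in mitochondrial rRNA, were lowest, and the log2 fold change was −0.29 (± 0.11 SE, with edgeR adjusted p = 0.321). Without knockout replicates 2 and 4 the median of the 13 was 0.01 and 7 were positive. With the mitochondrial rRNA share as a covariate it was −0.02 with 6 positive, with the mesothelial index −0.05 with 5, and with the clock index 0.12 with 13. With offsets for transcript length and GC it was −0.14 with 1 positive. Messenger RNAs of mitochondrial DNA took 6.69% to 7.25% of the counts in the wild-type and 6.84% to 7.02% in the knockout libraries.

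**Figure D5:**
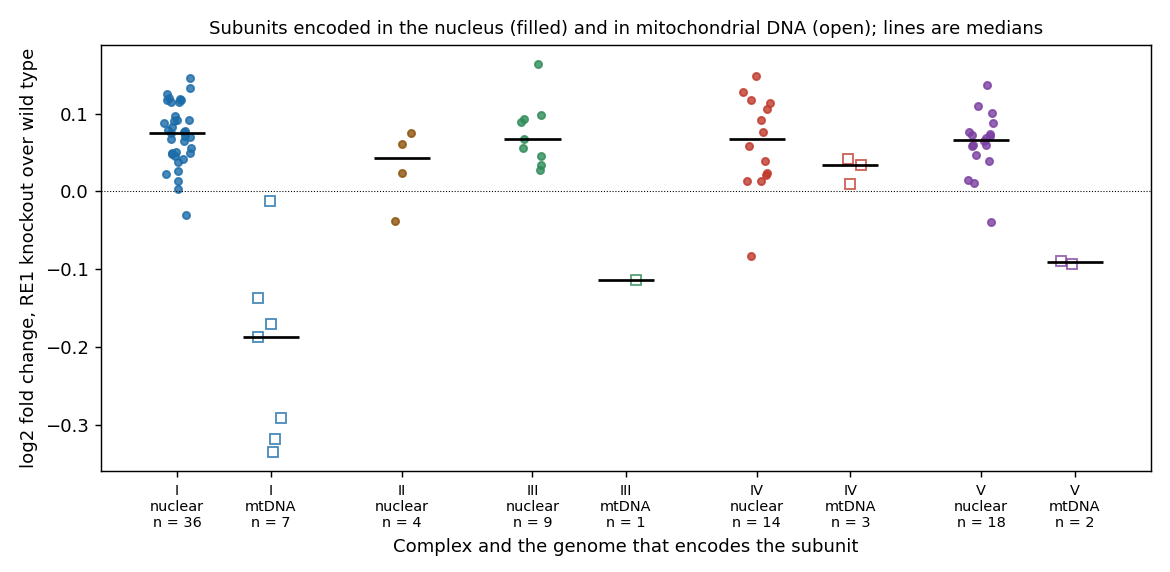
Log2 fold change, knockout over wild-type, on the vertical axis for the nuclear members other than Cycs (filled points) and the 13 subunits encoded in mitochondrial DNA (open squares), by complex, with a line at each median. Nuclear medians lie between 0.04 and 0.08, and mtDNA subunits of complexes I, III and V lie below 0.

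Genes that assemble the complexes, make coenzyme Q, run the citric acid cycle or regulate the pathway were read from lists, and 0 of them passed at an adjusted p under 0.05 in either direction. Positive log2 fold changes were found for 13 of 16 tested assembly factors of complex I (median 0.04), 3 of 4 of complex II (0.07), 5 of 6 of complex III (0.05), 13 of 21 of complex IV (0.01) and 4 of 5 of complex V (0.05). At an unadjusted p under 0.05 these lists gave 5 higher and 1 lower, where 6.11% and 6.9% of all genes tested were higher and lower. Of 13 coenzyme Q genes 9 were positive (median 0.05), of 14 genes that copy and transcribe mitochondrial DNA 10 (0.06), and of 16 citric acid cycle genes 12 (0.03). Sco2 and Pet117 are listed at 0 in every library. In the main fit the medians were smaller than that of the 82 members, a difference that was not tested. The order changed in other fits. With the clock covariate the assembly factors of complexes I to V had medians of 0.15, 0.16, 0.17, 0.10 and 0.13, against 0.06 for the members. In that fit the genes that copy and transcribe mitochondrial DNA had 0.12, the coenzyme Q genes 0.07 and the citric acid cycle genes 0.03.

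Further subunits and paralogues outside the symbol rule had a median of 0.09, with 5 of 5 tested positive. Cox7a2l, which links complexes III and IV into supercomplexes, had 3249, 3589, 3416 and 3234 normalized counts in the wild-type and 3778, 3683, 3778 and 3471 in the knockout libraries. Only wild-type replicate 2 exceeded a knockout library, and the log2 fold change was 0.12 (± 0.05 SE, with edgeR adjusted p = 0.243). Ndufa4l2, the low-oxygen paralogue of Ndufa4, was at 149.4 to 170.7 and 144.9 to 181.0 (0.02, ± 0.10 SE, with edgeR adjusted p = 0.958).

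Of 13 listed regulators of these genes, among them the corepressor Nrip1, 0 passed the test. They had a median log2 fold change of 0.0001, with 7 positive, and 0 higher and 2 lower at an unadjusted p under 0.05, the 2 being Ppargc1a and Ppargc1b. Ppargc1a, the coactivator that drives mitochondrial gene expression with ERR and NRF factors, had 3260, 2604, 2580 and 3049 normalized counts in the wild-type and 2447, 1889, 2474 and 2338 in the knockout libraries. All knockout libraries lay below all wild-type ones, at a log2 fold change of −0.34 (± 0.11 SE, with edgeR adjusted p = 0.251), a direction opposite to that of most members. Esrra, the ERR form that works with it, was at 1561 to 1687 and 1534 to 1690 (0.0001, ± 0.05 SE, with edgeR adjusted p = 0.999). Nrf1, whose product binds the string shown in capitals above, was at −0.03, and Gabpa, the ETS factor, at 0.06.

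Markers of other cell types were read beside the OXPHOS genes, and their summed levels overlapped between the groups for the 4 types described first. Of 10 cardiomyocyte markers 9 were positive with a median of 0.07, the members having 0.07 as well, and 0 passed. Their summed level was 52150 to 55670 CPM in the wild-type and 55250 to 56630 in the knockout libraries. All 8 endothelial markers were negative with a median of −0.10, and Cav1 was lower (edgeR adjusted p = 0.0099). Their sum was 746.8 to 833.0 CPM in the wild-type and 664.0 to 787.7 in the knockout libraries. All 8 fibroblast markers were positive with a median of 0.17, and Pdgfra and Gsn were higher (edgeR adjusted p = 0.0130 and 0.0074). Their sum was 1559 to 1859 and 1833 to 2018 CPM. Mesothelial markers were positive in 7 of 7 tested with a median of 1.80 and 0 passed, at 4.29 to 15.8 and 10.7 to 31.1 CPM in sum. In red blood cell markers 5 of 5 were positive with a median of 0.19, in skeletal muscle markers 4 of 4 tested with a median of 0.06, in macrophage markers 4 of 6 with 0.03 and in smooth muscle and pericyte markers 1 of 6 with −0.02, and in these lists 0 passed. The skeletal muscle markers tested were Acta1, Myh4, Myh1 and Ckm, and Ckm is also among the cardiomyocyte markers. The largest of their values was that of Acta1, at 0.64 (± 0.43 SE, with edgeR adjusted p = 0.610). Tnnt3 and Tnni2 of the same list were too low to be tested and were not higher in the knockout. By normalized count Tnnt3 was at 6.277 ± 5.001 in wild-type and 4.527 ± 2.529 in knockout libraries (SD, n = 4 each). Tnni2 was at 6.638 ± 3.664 and 6.6 ± 3.091 (SD, n = 4 each). The part of these cell types in the values of the OXPHOS genes was not tested. Brown fat is also rich in these genes. Of its 6 listed markers, the defining one, Ucp1, was at 0 in all 8 libraries, and Cidea was at 184.7 ± 20.1 in the wild-type and 187.1 ± 20.4 in the knockout libraries by normalized count (SD, n = 4 each). The other 4, all too low to be tested, were lower on average in the knockout, with Adipoq at 9.26 ± 6.86 against 1.57 ± 3.13 (SD, n = 4 each), Cidec at 10.2 against 1.48, Plin1 at 7.31 against 1.30 and Adrb3 at 2.93 against 0.261.

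Some members share sequence with other genes or overlap them. Of the 82, 52 shared no 100-base stretch with another gene, 18 shared 5% or more and 5 shared 20% or more, and 25 overlapped an exon on the opposite strand. Among the 48 with less than 5% sharing and no such overlap, a set chosen after seeing the data, 46 were positive with a median of 0.07, and 11 were higher at an unadjusted p under 0.05. That set still holds Cox5b, whose copy Gm11273 carried 57.55% as many reads. The members lie on 19 chromosomes, 3 of them on the X.

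In the authors' deposited table, made with other settings, 78 of the 82 members were positive as knockout over wild-type, and their median log2 fold change was 0.07. Uqcrb was the 1 member with an adjusted p under 0.05 there, among 241 of 14259 genes with an adjusted p. That table rests on the same 8 libraries.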

How the data were processed

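Paired-end reads of 125 bases were made from 900 ng of total RNA with a stranded kit, per the labels' protocols. The submitters' processing notes list STAR, DESeq2 and build mm10. The sources used here name no counting program, strand setting or annotation. Raw counts per Ensembl gene ID, 1 column per mouse, were deposited by the authors. They deposited normalized values too, a linear signal equal to the count divided by 1 size factor per library. The authors' deposited comparison gives log2 fold changes (wild-type over knockout, turned here), p-values and adjusted p-values.

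Raw counts of all 41128 rows were tested with edgeR 4.0.16 in R 4.3.3 (TMM, filterByExpr, quasi-likelihood F test with robust estimation, group only). The two-sided p-values were adjusted by Benjamini-Hochberg across the 16551 genes tested. Means are of the deposited normalized counts. Intervals use the fold change and its standard error. Positions, exon lengths and missing symbols are from GENCODE M21 (GRCm38, the assembly of mm10). The symbols of Ndufa11, Ndufb4 and Ndufs6 were blank in the file, and Atp5mpl is listed there as 2010107E04Rik. With 4 mice per group, p-values measure the spread between these mice. Pairs of libraries differed by more than sampling noise, as measured by a mean chi-square per gene. Among the knockout libraries it was 3.09 for replicates 1 and 3 and 3.60 for replicates 2 and 4. For the other knockout pairs it ran from 14.3 to 16.4, and for the wild-type pairs from 4.89 to 12.8. The knockout libraries thus fell into pairs, of which replicates 2 and 4 were low in mitochondrial rRNA.

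The members and lists were chosen with earlier results of these data known. Named genes are members past the threshold, the 2 of highest TPM and the smallest p in each direction per complex, isoform families, a fixed set of core subunits that leaves out Ndufv2, Ndufa4l2, Cox7a2l, Ppargc1a, Esrra, Nppa and Nppb. One core subunit is not reported here. Others were named after their values were seen. On simulated counts for 16362 genes, the edgeR step found 38% of the genes with a 1.25-fold change, 80% with 1.5-fold, 98% with 2-fold and all with 4-fold, and 14 of its 172 calls were false. Differences of the size seen in the members are below those simulated. The changed genes were drawn from genes of a wide range of abundance, not from genes like the members. The median standard error was 0.043 for the members and 0.0744 for the 11033 genes at least as abundant as the lowest member. The shares found in the simulation therefore do not give the recovery for the members. Alternatives were other scalings, filters, thresholds and member minimums, libraries left out, the replicate block, DESeq2 1.42.0, limma 3.58.1 with voom or on log2(normalized count + 1), covariates, and length and GC offsets. Non-robust estimation, principal transcript lengths and the set with little sharing were added after seeing the data.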

Additional observations from a re-analysis of the deposited data

Results flagged for a closer look

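In 4 of 82 groups of 4 libraries examined, from the named members, the complexes and the ratios of forms, a single library lay far from the others of its group by Dixon's criterion, whose critical value is 0.829. Chance gives such a flag in about 1 in 20 groups. Uqcr11 had 5515 normalized counts in wild-type replicate 1 and 6090 to 6202 in the other wild-type libraries (gap over range 0.837). Cox6a1 had 864.3 in wild-type replicate 2 and 773.4 to 778.6 in the others (0.943). Cox8b had 5295 in knockout replicate 3 and 4999 to 5034 in the others (0.884). Atp5g2 had 3072 in wild-type replicate 3 and 2809 to 2844 in the others (0.868).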

How the results depend on the processing

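The count of members past the threshold was 0 lower under all settings and 0 higher under all but 3. It was 1 higher, Uqcrb, with no low-count filter (log2 fold change 0.16, adjusted p = 0.0152), with DESeq2 (0.17, adjusted p = 0.018) and at a threshold of 0.10. Over all genes the main counts were 62 higher and 114 lower, with 269 and 374 for no filter, 112 and 184 for DESeq2, and 0 and 1 for the clock covariate. The median of the members ran from 0.06 to 0.10 over the other settings and from 0.06 to 0.09 without 1 library. Adding the replicate block gave a median of 0.07, 78 positive members, 17 higher at an unadjusted p under 0.05 and 0 called. With offsets as well, 9 were higher at an unadjusted p under 0.05. For both fits the share of all genes at that level is not given. Same-numbered libraries did not deviate together (correlations −0.01, 0.02, −0.08 and −0.06). Such correlations cannot tell whether those libraries share a litter or a preparation. Of 713 values of 31 named genes, 673 kept direction and side of the threshold and 38, in 14 genes, changed sign, none of them called. The cause of these changes was not tested.

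Without 1 library, the log2 fold change ran from −0.0081 to 0.036 for Cox6a2, −0.028 to 0.054 for Cox8b, −0.0015 to 0.041 for Atp5g2, −0.011 to 0.046 for Atp5b and −0.077 to 0.0021 for Atp5j. Without knockout replicates 2 and 4 it was −3.52e-05 for Atp5b, 0.054 for Atp5j, −0.0029 for Cox4i1 and −0.051 for Cox4i2, and the log2 ratio of Cox4i2 over Cox4i1 was −0.042. With length and GC offsets it was −0.020 for Cox6a2, −0.030 for Cox8b and −0.0006 for Atp5g2, and with the replicate block added −0.019, −0.029 and −0.0008. With the mitochondrial rRNA covariate it was 0.041 for Sdha, 0.092 for Atp5j and −0.017 for Cox4i2, and with the mesothelial covariate −0.027 for Cox6a2, −0.000365 for Atp5b and −0.017 for Cox4i2. The clock covariate gave the most sign changes, with Ndufa3 at 0.0097, Atp5j at 0.0007, Uqcr11 at −0.052, Cox6a2 at −0.004, Atp5a1 at −0.019, Atp5b at −0.066, Cox4i1 at −0.015, Cox4i2 at −0.27, Cox7a2 at −0.0145, Atp5g2 at −0.013, Ndufs1 at −0.039 and Ndufv1 at −0.046. Standard errors near 0.04 limit what can be shown at this depth and number of mice.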
